A study of Mus musculus with 4 samples.

Results

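The 9 genes described here are inducible defence genes of the gut epithelium: the lectins Reg3a, Reg3b and Reg3g, the oxidase gene Duox2 with its maturation factor Duoxa2, the antibody transporter Pigr, the iron chelator Lcn2, and the NF-kB targets Birc3 and Nfkbia. They were chosen by symbol from the 31040 genes of the deposited matrices. Single-cell RNA profiles came from organoids, which are self-renewing epithelial cultures, here grown from crypts of mouse intestine. These crypts came from 2 mice aged 10 weeks, of the genotype Cbl flox/flox, Cbl-b flox/flox, R26 Cre ERT2. Organoids of each mouse were replated and grown for 3 days with 400 nM 4-hydroxytamoxifen (knockout) or without it (control). The control organoids thus carry the floxed alleles and the Cre fusion as well, and an effect of 4-hydroxytamoxifen itself and an effect of deleting Cbl and Cblb cannot be told apart. The Cre is driven from the R26 locus, which is active in most cell types, so Cre is not limited to one class of cells. There are 2 libraries per group, numbered by mouse, and the question is how the defence genes differed between knockout and control in the sum over all cells, and within enterocytes and secretory cells.

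Mucosal defence genes are switched on in gut epithelium by microbes and by cytokines. Interleukin 22 acts through STAT3, and tumour necrosis factor, interleukin 1 and Toll-like receptors act through NF-kB. Reg3 proteins are secreted C-type lectins that act on bacteria near the epithelium, and in the intestine they are made mainly by enterocytes and Paneth cells. Duox2 releases hydrogen peroxide at the apical surface, and needs Duoxa2 to leave the endoplasmic reticulum. Pigr carries dimeric immunoglobulin A from the tissue side of the cell to the lumen. Organoids hold epithelium alone, without a microbiota and without added immune cells.

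The 3 lectin genes lie together on mouse chromosome 6 of GRCm38, Reg3b at chr6:78370657-78373466 and Reg3a at chr6:78380709-78383827 on the plus strand, and Reg3g at chr6:78466269-78468872 on the minus strand. Duox2 (chr2:122279247-122298449, minus strand) and Duoxa2 (chr2:122298900-122302885, plus strand) point away from each other, and their RefSeq starts are 673 bases apart. Pigr is at chr1:130826684-130852249, Lcn2 at chr2:32384633-32388252, Birc3 at chr9:7848699-7873186 and Nfkbia at chr12:55489410-55492647. In GENCODE M21 an exon of Duoxa2 overlaps Duoxa1 on the opposite strand, and the strand setting of the counting is not given in the sources used here, so the Duoxa2 counts are uncertain to that extent. Duoxa1 itself had 0 or 1 UMI in 3 libraries and 5 in knockout 2. The longest protein-coding GENCODE transcripts of the lectins are alike, with 75.5% identity over aligned bases between Reg3a and Reg3b, 74.4% between Reg3b and Reg3g and 70.3% between Reg3a and Reg3g. Their longest shared runs, in the same order, were 24, 35 and 24 bases.

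The bases just before the transcription start are shown for 5 of the genes, because 3 of them are a family whose members moved together in the sum over all cells and because the matches to known motifs fall here. Each stretch of 150 bases ends 20 bases before the RefSeq start (GRCm38.p6), 5′ to 3′ on the strand of the gene, and all 9 genes had an entry in the RefSeq table. Capitals mark matches to 3 motifs searched in the 250 bases before the start: the kappa B consensus and the STAT motif TTCNNNGAA on both strands, and TATAAA on the strand of the gene. The 3 motifs share no overlapping match in these stretches. Reg3a is at chr6:78380540-78380689 (plus strand), Reg3b at chr6:78370716-78370865 (plus strand, 5 of its bases in an exon of another GENCODE transcript), Reg3g at chr6:78468894-78469043 (minus strand), Duoxa2 at chr2:122298731-122298880 (plus strand) and Nfkbia at chr12:55492667-55492816 (minus strand).
Reg3a: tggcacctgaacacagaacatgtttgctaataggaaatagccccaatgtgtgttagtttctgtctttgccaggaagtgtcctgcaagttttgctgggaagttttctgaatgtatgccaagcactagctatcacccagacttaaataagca
Reg3b: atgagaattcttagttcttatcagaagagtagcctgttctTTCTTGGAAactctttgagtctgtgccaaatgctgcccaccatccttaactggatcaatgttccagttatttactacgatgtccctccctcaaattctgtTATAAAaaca
Reg3g: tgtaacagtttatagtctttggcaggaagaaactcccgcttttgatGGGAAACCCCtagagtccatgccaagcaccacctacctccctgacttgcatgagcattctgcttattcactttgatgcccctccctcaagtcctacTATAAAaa
Duoxa2: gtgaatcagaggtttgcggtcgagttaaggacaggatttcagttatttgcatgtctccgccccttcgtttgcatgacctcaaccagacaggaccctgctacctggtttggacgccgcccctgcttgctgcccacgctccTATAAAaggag
Nfkbia: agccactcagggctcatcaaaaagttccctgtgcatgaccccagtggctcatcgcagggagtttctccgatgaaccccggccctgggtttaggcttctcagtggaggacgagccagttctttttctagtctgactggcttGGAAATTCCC
Reg3b held the STAT motif 129 to 121 bases before its start and TATAAA at 29 to 24. Reg3g held the kappa B consensus at 123 to 114 and TATAAA at 27 to 22, Duoxa2 held TATAAA at 30 to 25, and Nfkbia held the kappa B consensus at 29 to 20. None of the 3 motifs was found in the 250 bases of Reg3a, Duox2, Pigr, Lcn2 or Birc3. The 250 bases of Reg3a end in cactttgat, letters that in Reg3g come before its TATAAA. The Reg3a bases past that point were not searched, so a TATAAA placed as in Reg3g would have been missed. For Duox2 all 150 bases of the matching stretch, and for Lcn2 97 of them, lie in GENCODE exons, so those windows are largely transcribed sequence and are not shown. Over 32817 mouse promoters of the same length, 7.25% held the kappa B consensus, 7.01% the STAT motif and 7.6% TATAAA. A match describes letters and shows no binding.

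The libraries held 1208 and 709 barcodes (control 1 and 2) and 1702 and 1983 (knockout 1 and 2). After removal of 173 barcodes with under 500 genes and 67 likely doublets, 5362 cells remained, with median depths of 16080 to 27457.5 UMIs, and 4 barcodes, counted over the libraries, also occurred in another library. Clusters were made without the defence genes and named from marker genes as enterocyte-like (1004 cells), secretory (goblet-like, Paneth-like, enteroendocrine-like and tuft-like, 1312 cells), stem-like, cycling-like or fetal-like, and 5 of 18 clusters stayed unnamed. The 15 enterocyte markers summed to 35561 to 55091 CPM in the enterocyte-like class of each library. CPM scales the UMIs of a gene to the UMIs of all genes in the cells summed. These markers helped name the class, so high sums were bound to follow and do not test the name. Of its clusters, cluster 5 (255 cells) was named on a score (mean z-score of the markers) of 0.846. It had 0 markers among its 10 leading genes. At Leiden resolution 2, a cluster with many of the same leading genes stayed unnamed, at 0.432 where 0.5 was needed. Enterocyte-like cells made up 21.1% and 38.7% of the control cells of mice 1 and 2, and 12.8% and 15.2% of the knockout cells. They were also shallower in the knockout, with medians of 5145 and 9250 UMIs against 10121.5 and 15413 in the controls. Cbl was at 16.9 and 19.9 CPM in controls, against 12.3 and 10.5 in knockouts, and Cblb at 8.53 and 3.93 against 3.34 and 0.463. The deleted exons are not given in the sources used here, so RNA from outside them could still be counted. With 1 library per mouse and group, p-values measure only the spread between these libraries, and the paired fit leaves 1 residual degree of freedom. In a sum over all cells, fewer cells of a class and less RNA per cell cannot be told apart.

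In the sum over all cells, the lectins, Pigr and Birc3 were lower in the knockout, and within enterocyte-like cells the lectins and Birc3 did not pass the test. With libraries paired by mouse, 5 of the 8 genes that could be tested fell in all cells (Reg3a, Reg3b, Reg3g, Pigr and Birc3) and 0 rose, where 8.29% of the 13246 genes tested fell and 4.43% rose (edgeR quasi-likelihood test, adjusted p under 0.05 over all genes). Within enterocyte-like cells, 1 of 8 fell (Pigr) and 2 rose (Duox2 and Duoxa2), where 1.09% of 9885 genes fell and 1.39% rose (2.48% in all; 12.7% in all cells). Lcn2 did not pass the filter on low counts in any class. The median log2 fold change of the tested defence genes was -0.53 in all cells, against -0.01 over all genes tested, and -0.04 against 0.00 in enterocyte-like cells. Without pairing, the same test called 0 of the 13246 genes in all cells and 0 of the 9885 in enterocyte-like cells, with 1141 and 201 at an unadjusted p under 0.05, so each call below rests on the pairing. DESeq2 without pairing called 131 and 7 genes, Reg3b in all cells among them (adjusted p = 4.76e-05). The share of all genes whose groups do not overlap is not given, so a lack of overlap below is a description only.

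**Figure D1:**
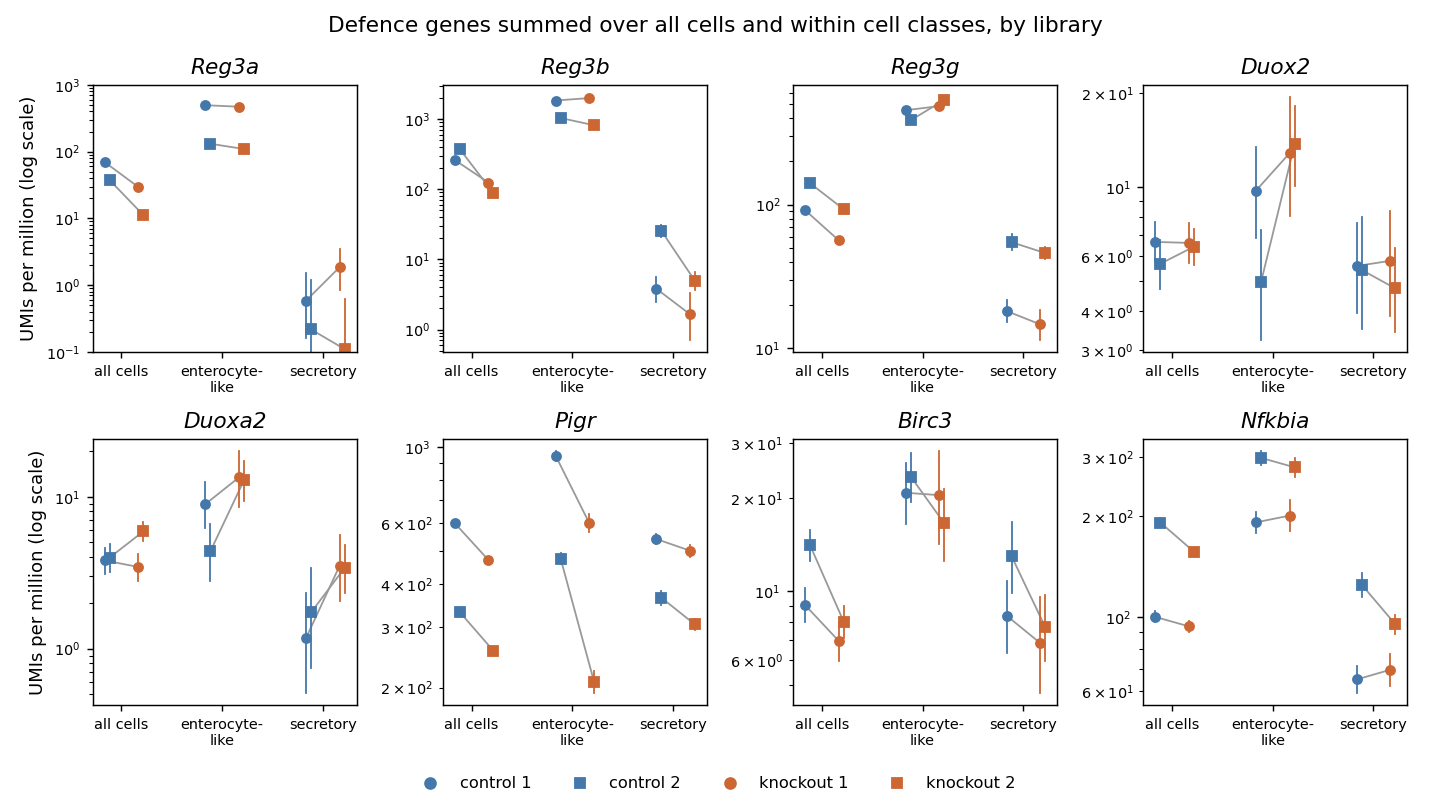
CPM (log scale) of 8 defence genes in each library, summed over all cells, over enterocyte-like cells and over secretory cells. Grey lines join the control and the knockout of a mouse, and vertical bars are exact Poisson 95% intervals, which cover counting error only. The Reg3a, Reg3b and Reg3g lines drop in both mice in all cells, and in enterocyte-like cells Reg3b goes from 1836 to 1987 in mouse 1 and from 1034 to 815 in mouse 2. The axis for Reg3a starts at 0.1.

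Reg3a, an enterocyte-made lectin, stood at 69.7 and 37.4 CPM of all cells in controls 1 and 2 and at 29.6 and 11.2 in knockouts 1 and 2. Both knockouts were below both controls. The paired log2 fold change was -1.51 ± 0.13 (SE, adjusted p = 0.00232 by edgeR). Within enterocyte-like cells the levels were 497 and 131 in controls, against 471 and 110 in knockouts, so they differed far more between the mice than between the groups. Paired by mouse, the log2 fold change there was -0.15 (edgeR adjusted p = 0.897). Enterocyte-like cells held 84.2% to 99.2% of all Reg3a UMIs in each library. In Paneth-like cells no Reg3a UMI was counted, where 3 counts would have been 1.36 to 2.97 CPM.

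Reg3b, the lectin with the most UMIs here, was at 260 and 370 CPM of all cells in controls, against 124 and 87.9 in knockouts. Both knockouts were below both controls, with a paired log2 fold change of -1.61 ± 0.22 (edgeR adjusted p = 0.00923). Within enterocyte-like cells it was at 1836 and 1034 in controls, against 1987 and 815 in knockouts, higher in the knockout of mouse 1 and lower in that of mouse 2. Its paired difference within them was -0.09 on the log2 scale (edgeR adjusted p = 0.960). Reg3b counts sat in few cells: 9, 4, 5 and 7 enterocyte-like cells of controls 1 and 2 and knockouts 1 and 2 held at least as many Reg3b UMIs as all others of their library together. In control 2, 1 fetal-like cell held 1778 of the 8099 Reg3b UMIs of the library. Without the richest cell of each library, the paired log2 fold change in all cells was -1.58 (edgeR adjusted p = 0.00434).

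Reg3g, the lectin best known as induced by microbes, was at 91.6 and 141 CPM of all cells in controls, against 56.5 and 92.9 in knockouts. It was lower in the knockout of each mouse, though knockout 2 lay slightly above control 1. Paired by mouse, Reg3g had a log2 fold change of -0.69 ± 0.08 (edgeR adjusted p = 0.00541). Within enterocyte-like cells it was at 454 and 387 in controls, against 485 and 536 in knockouts, higher in both knockouts than in both controls. That paired difference, 0.31 on the log2 scale, did not pass the test (edgeR adjusted p = 0.565). Of its UMIs, 52.9% to 69.1% came from enterocyte-like cells in each library. For Reg3b that share was 94.1% to 98.5% in 3 libraries and 67.1% in control 2.

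The ratio of Reg3b to Reg3g differed between classes. Enterocyte-like cells held 4.04, 2.67, 4.10 and 1.52 Reg3b UMIs per Reg3g UMI (controls 1 and 2, knockouts 1 and 2), and cycling-like cells held 0.305, 0.0289, 0.0347 and 0.0854. The ratio in stem-like cells was 0.0565 to 0.139. In each library both ratios were below that of its enterocyte-like cells. Reg3g in cycling-like cells stood at 24.8 to 30.6 CPM in the 4 libraries, and in stem-like cells at 25.8 to 32.8. In enteroendocrine-like cells it was at 3.38 to 12.2 CPM, from 3 to 7 UMIs a library. At 5000 UMIs a cell, Reg3g was found in 7.14% to 13.6% of cycling-like cells and in 2.22% or less of enteroendocrine-like cells, whose median depths before thinning were 26900 to 54774.5 and 8634.5 to 18019 UMIs. The part of free RNA in these low levels was not tested.

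Among enterocyte-like cells thinned to 5000 UMIs each, so that depth was equal, Reg3a was found in 50.0% and 25.0% of control cells and in 40.4% and 19.6% of knockout cells. Secretory cells had it in 0.769% or less in every library, at median depths of 13577 to 28129 UMIs before thinning against 5145 to 15413 in enterocyte-like cells. For Reg3g the shares were 41.5% and 29.3% in controls, against 41.3% and 46.7% in the knockouts. No difference in such a share between groups can reach a two-sided exact permutation p below 0.333 with 2 against 2 libraries. Cells shallower than 5000 UMIs were left out, 54 and 56 of the enterocyte-like cells of the controls and 100 and 75 of those of the knockouts. Before thinning, the Reg3a shares were 62.4% and 34.5% against 35.4% and 30.4%.

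The lectins were found together in the same cells. Of the 719 enterocyte-like cells at 5000 UMIs, 69.4% of those with a Reg3a UMI also had a Reg3b UMI, against 22.2% of those without. Of those with a Reg3b UMI, 60.2% had Reg3g, against 27.1% of the rest. Pigr, found in most enterocyte-like cells, was in 74.3% of those with Reg3b and in 57.6% of the rest. These are shares over cells of 4 libraries and carry no test.

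The 3 enterocyte-like clusters differed in their lectins. Reg3a was highest in cluster 15, whose leading genes include Fabp1 and Adh1, at 1036 and 462 CPM in controls, against 1369 and 319 in knockouts. In cluster 5 it was at 33.2 to 118 CPM. The largest cluster, 0, led by Tmigd1, Anpep and Apoa1, held 27.7% and 83.7% of the enterocyte-like cells of controls 1 and 2 and 30.6% and 76.5% of those of the knockouts, so its share followed the mouse more than the group. The other enterocyte-like clusters shifted in mouse 1: cluster 15 held 43.0% of the class in control 1 and 21.5% in knockout 1, and cluster 5 held 29.3% and 47.8%. In mouse 2, cluster 15 held 3.79% and 5.88% and cluster 5 held 12.5% and 17.6%. Values over the whole class in mouse 1 therefore come from different clusters in the control and the knockout. In cluster 0 alone the paired log2 fold changes of Reg3a and Reg3b were 0.22 and 0.57, opposite in sign to those over the whole class, with edgeR adjusted p of 0.996 and 0.692. In cluster 15 Reg3b was at 3019 and 6457 CPM in controls, against 2202 and 266 in knockouts. Control 2 and knockout 2 had 10 and 17 cells in it, and 1 cell of control 2 held 1024 of the 1145 UMIs.

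**Figure D2:**
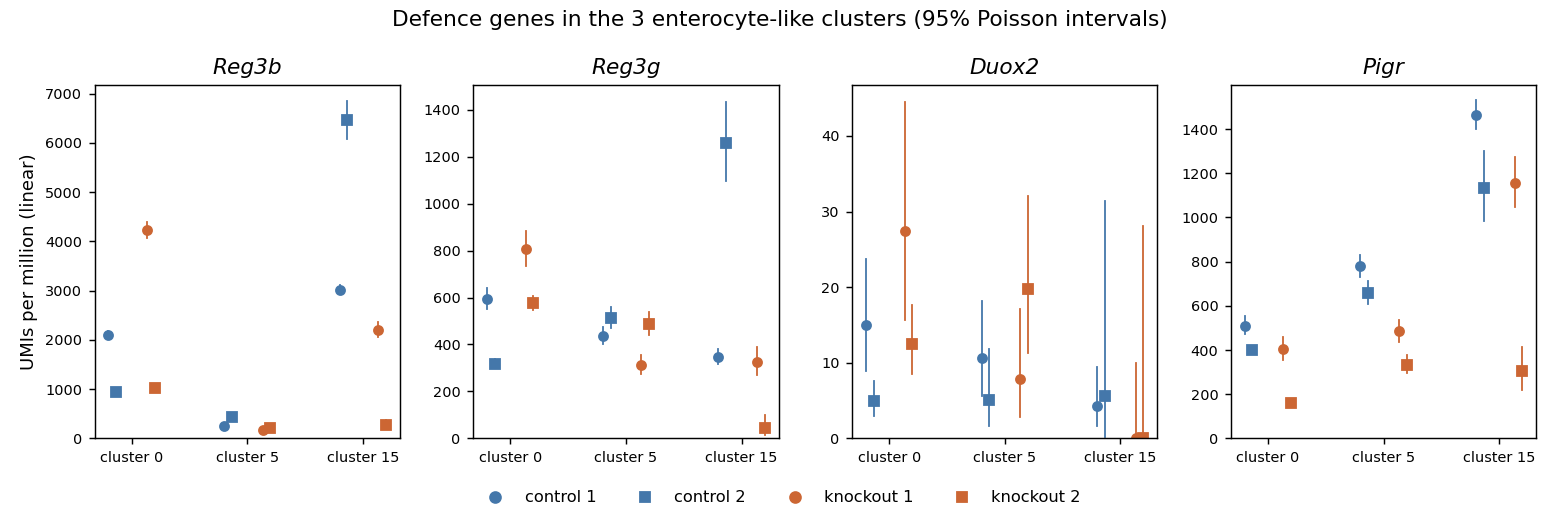
CPM (linear scale) of Reg3b, Reg3g, Duox2 and Pigr in the 3 enterocyte-like clusters of each library, with exact Poisson 95% intervals for counting error. Pigr is lower in the knockout than in the control of the same mouse in all 3 clusters. Reg3b and Reg3g are both higher in the knockout of each mouse in cluster 0, and both lower in clusters 5 and 15.

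Duox2 and Duoxa2 rose within enterocyte-like cells and were not called in all cells. Duox2, the peroxide-generating oxidase, was at 6.66 and 5.67 CPM of all cells in controls, against 6.61 and 6.43 in knockouts, a paired log2 fold change of 0.04 (edgeR adjusted p = 0.878). Within enterocyte-like cells it was at 9.74 and 4.95 in controls, against 12.8 and 13.7 in knockouts. The groups did not overlap, but the counting intervals of control 1 and knockout 1 did (6.85 to 13.4 and 8.04 to 19.4 CPM). The paired log2 fold change was 0.99 ± 0.30 (edgeR adjusted p = 0.0392). These levels rest on 37, 26, 22 and 48 UMIs. The call was lost, at adjusted p of 0.0576 to 1.00, under 6 of the 9 other paired settings, DESeq2 among them, while the log2 fold change stayed between 0.93 and 1.15.

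Duoxa2, the maturation factor, was at 8.95 and 4.38 CPM of enterocyte-like cells in controls, against 13.4 and 12.8 in knockouts, again without overlap. The paired log2 fold change was 1.11 ± 0.31 (edgeR adjusted p = 0.0178), from 34, 23, 23 and 45 UMIs. The clusters did not move alike in mouse 1. In cluster 0, Duox2 and Duoxa2 each went from 15.03 CPM (18 UMIs) in control 1 to 27.4 CPM (16 UMIs) in knockout 1, whereas in cluster 5 Duox2 went from 10.6 to 7.86 CPM and Duoxa2 from 13.1 to 9.17 CPM. In cluster 15, Duox2 had 6 UMIs in control 1 and 0 in knockout 1, and Duoxa2 had 0 UMIs in all 4 libraries. This cluster held 43.0% of the class in control 1 and 21.5% in knockout 1, and 3.79% and 5.88% in mouse 2. The part of that shift in the rise of both genes over the class was not tested. In mouse 2 both genes were higher in the knockout in clusters 0 and 5. Duoxa2 was no longer called without the richest cell of each library (adjusted p = 0.10) or with DESeq2 (adjusted p = 1.00). In all cells it was at 3.81 and 3.98 in controls, against 3.45 and 5.91 in knockouts (paired log2 fold change 0.19, edgeR adjusted p = 0.635). Of the enterocyte-like cells with a Duox2 UMI at 5000 UMIs, 25.0% had a Duoxa2 UMI (10 with both, 30 with Duox2 alone), against 1.9% of the cells without. The libraries differed: 3 and 0 control cells had both genes and 4 and 8 had Duox2 alone, and 4 and 3 knockout cells had both and 5 and 13 had Duox2 alone. After thinning, Duox2 was found in 3.72% and 3.85% of control and 8.26% and 7.48% of knockout enterocyte-like cells, against 1.91% and 3.08%, and 2.34% and 1.28%, of secretory cells. The Duoxa2 shares were 5.32% and 0.481% in controls, against 4.59% and 3.27% in knockouts, so in mouse 1 the share was not higher in the knockout.

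Pigr was the 1 gene of the 8 tested that fell within enterocyte-like cells. It stood at 943 and 474 CPM of enterocyte-like cells in controls, against 601 and 207 in knockouts, lower in the knockout of each mouse. The mice differed as well, so knockout 1 lay above control 2. The paired log2 fold change was -0.90 ± 0.17 (edgeR adjusted p = 1.49e-05), and with DESeq2 -0.89 (adjusted p = 0.00730). In cluster 0 it was at 511 and 400 against 404 and 162, in cluster 5 at 780 and 659 against 485 and 334, and in cluster 15 at 1465 and 1134 against 1157 and 304. It was lower in the knockout of each mouse in all of these clusters. Enterocyte-like cells were shallower in the knockout, and among those with at least 5000 UMIs the paired log2 fold change was -1.02 (edgeR adjusted p = 2.14e-10).

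Over all cells Pigr was at 600 and 331 CPM in controls, against 469 and 256 in knockouts (paired log2 fold change -0.40 ± 0.08, edgeR adjusted p = 0.0310). It was spread widely: enterocyte-like cells held 21.9% and 34.4% of its UMIs in controls, against 7.9% and 8.2% in the knockouts. In secretory cells it was at 540 and 365 against 500 and 305 (paired log2 fold change -0.25, edgeR adjusted p = 0.129). The difference between the enterocyte-like and the secretory fold change of Pigr was -0.70 ± 0.32 on the log2 scale, which did not pass the interaction test over 11660 genes (edgeR, unadjusted p = 0.0522, adjusted p = 1.00). That test called 0 genes, with 448 at an unadjusted p under 0.05. A fall of Pigr particular to enterocyte-like cells is thus not shown.

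Lcn2, lipocalin 2, which binds bacterial siderophores and is strongly induced in inflamed gut, was at the limit of detection. The 4 libraries held 4, 3, 4 and 2 UMIs. Enterocyte-like cells held 0 in each library, where 3 counts would have been 0.571 to 1.75 CPM.

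Birc3, an inhibitor of apoptosis and NF-kB target, was at 9.04 and 14.1 CPM of all cells in controls, against 6.94 and 7.99 in knockouts, with no overlap. It fell by 0.65 on the log2 scale in the paired fit (SE 0.15, edgeR adjusted p = 0.0397), and DESeq2 with pairing did not call it (adjusted p = 0.185). Within enterocyte-like cells it was at 20.8 and 23.4 in controls, against 20.4 and 16.6 in knockouts, a paired log2 fold change of -0.27 (edgeR adjusted p = 0.820).

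Nfkbia, which encodes the inhibitor of NF-kB that NF-kB itself induces, was at 99.98 and 191 CPM of all cells in controls, against 93.7 and 157 in knockouts (paired log2 fold change -0.23, edgeR adjusted p = 0.125). Within enterocyte-like cells it was at 192 and 299 in controls, against 201 and 280 in knockouts. The paired log2 fold change there was 0.01 (SE 0.16, edgeR adjusted p = 0.997), and its sign changed with the scaling. The level followed the mouse: library 2 was above library 1 in both groups.

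**Figure D3:**
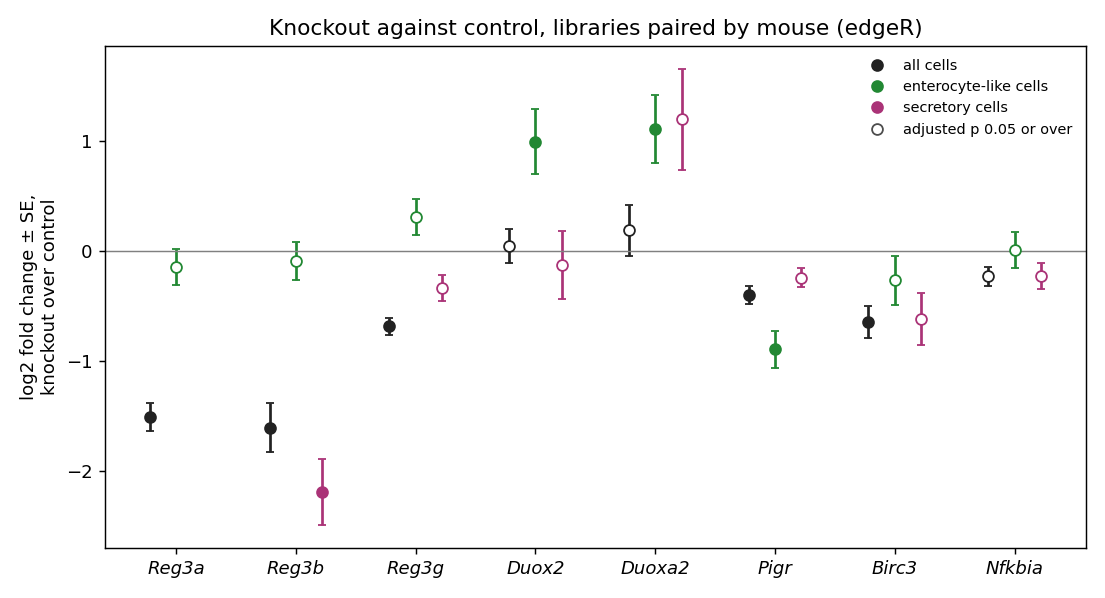
Log2 fold change of knockout over control ± SE for 8 defence genes, with libraries paired by mouse (edgeR), in all cells, enterocyte-like cells and secretory cells. Filled points have an adjusted p under 0.05. The lectins are below 0 in all cells. In enterocyte-like cells Reg3a and Reg3b are near 0, and Reg3g is above 0 but did not pass the test. Duox2 and Duoxa2 are above 0 in enterocyte-like cells, and Pigr is lowest in enterocyte-like cells.

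In secretory cells, 1 of the 7 defence genes that passed the filter was called in the paired fit, where 5.27% of 11251 genes were (2.52% lower and 2.75% higher). That gene was Reg3b, at 3.82 and 25.6 CPM in controls, against 1.66 and 4.94 in knockouts (log2 fold change -2.20, edgeR adjusted p = 0.00181). In control 2, 115 of its 118 UMIs in secretory cells were in 1 goblet-like cell, and without the richest cell of each library the log2 fold change was -0.18 (edgeR adjusted p = 0.943). With defence genes kept in the clustering it was 0.52, the opposite direction. Reg3g, at 18.2 and 54.8 against 14.7 and 46.0, did not pass (log2 fold change -0.34, edgeR adjusted p = 0.115). Duoxa2, at 1.17 and 1.73 against 3.52 and 3.41, was higher in both knockouts, and did not pass either (log2 fold change 1.20, edgeR adjusted p = 0.159). With no doublets removed, the count of genes called in this class was 14 in place of 593. The class then also held other cells (259 and 138 control and 247 and 432 knockout cells, against 310 and 153, and 315 and 534), since the cluster led by Agr2, Atoh1 and Dll1 stayed unnamed.

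Within goblet-like cells alone Reg3g was at 23.6 and 74.8 CPM in controls, against 17.7 and 43.3 in knockouts, and fell in the paired fit (log2 fold change -0.73, edgeR adjusted p = 2.13e-05). The goblet-like class sat in different clusters in the groups: cluster 11, led by Agr2, Atoh1 and Dll1, held 29.3% and 12.6% of its control cells but 43.8% and 34.2% of its knockout cells, and cluster 13, led by Zg16 and Clca1, held the rest. In mouse 2, 1 goblet-like cell held 116 of the 243 Reg3g UMIs of the control, and 1 held 91 of the 259 of the knockout. There 14.9% of the 10342 genes tested were called, 6.80% lower and 8.12% higher. Without the richest cell of each library it fell by 0.49 on the log2 scale (edgeR adjusted p = 0.0258). Reg3b fell in them too (log2 fold change -4.67), on 21, 116, 0 and 9 UMIs, of which the same single cell of control 2 held 115 (edgeR adjusted p = 1.20e-30), and without the richest cells it could not be fitted. In Paneth-like cells Reg3g was at 5.11 and 5.93 in controls, against 13.2 and 70.9 in knockouts, with 80 of the 157 UMIs of knockout 2 in 1 cell. It rose in the paired fit (log2 fold change 2.71, edgeR adjusted p = 0.00328), where 0.508% of 6697 genes were called, 0.239% higher and 0.269% lower (0.0149% without pairing, all of it lower), and without the richest cells too few counts remained for a test. DESeq2 with pairing did not call it (adjusted p = 0.840). Nfkbia fell by 0.78 in Paneth-like cells (edgeR adjusted p = 0.0448), and by 0.64 without the richest cells, where it no longer passed (adjusted p = 0.0950). In cycling-like cells 0 of the 7 genes tested were called, where 3.26% of 11067 were. All 7 had a log2 fold change below 0, with a median of -0.19 against -0.003 over all genes tested. The share of all genes below 0 is not given, so the shared sign is a description only. Duox2 and Duoxa2 were lower in the knockout of mouse 1 and higher in that of mouse 2. Without the richest cells, Duox2 was at 0.05 in the paired fit, and the other genes that could be fitted stayed below 0.

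Across classes, the lectins and Nfkbia had their highest mean in enterocyte-like cells. Over the 4 libraries Reg3a had a mean of 302 ± 211 CPM there (SD, n = 4), and the next classes, tuft-like (28 cells in all) and fetal-like, were at 50.6 ± 101 and 17.8 ± 27.1. Reg3g was at 465 ± 62.2 in enterocyte-like and 313 ± 131 in fetal-like cells, which overlap, and at 39.98 ± 5.72 in unnamed cells, the next class. Duox2 was at 22.4 ± 10.3 in fetal-like cells, then 10.3 ± 3.96 in the enterocyte-like class and 6.56 ± 0.63 in the goblet-like one. Its fetal-like and enterocyte-like values did not overlap, and its enterocyte-like and goblet-like values did. The fetal-like class had 8 and 12 cells in control 1 and knockout 1, so its values in mouse 1 rest on few UMIs. For Duox2 these were 4 and 3 UMIs (20.2 and 37.5 CPM), against 15.3 and 16.5 CPM in mouse 2. For Reg3g they were 87 UMIs, all in 1 cell, and 33 UMIs (439 and 412 CPM), against 204 and 195 CPM in mouse 2. Duoxa2 also had its highest mean in fetal-like cells, at 14.8 ± 12.3, with 0 UMIs in those of knockout 1. It was at 9.90 ± 4.18 in enterocyte-like cells, and the values of these classes overlapped. Birc3 was at 20.3 ± 2.83 in enterocyte-like and 18.0 ± 9.44 in fetal-like cells, and Nfkbia at 243 ± 54.4 and 196 ± 58.6. Pigr had no clear peak, with enterocyte-like cells at 556 ± 306, goblet-like ones at 542 ± 149 and stem-like ones at 472 ± 71.3, and was lowest in fetal-like cells at 57.7 ± 17.5.

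**Figure D4:**
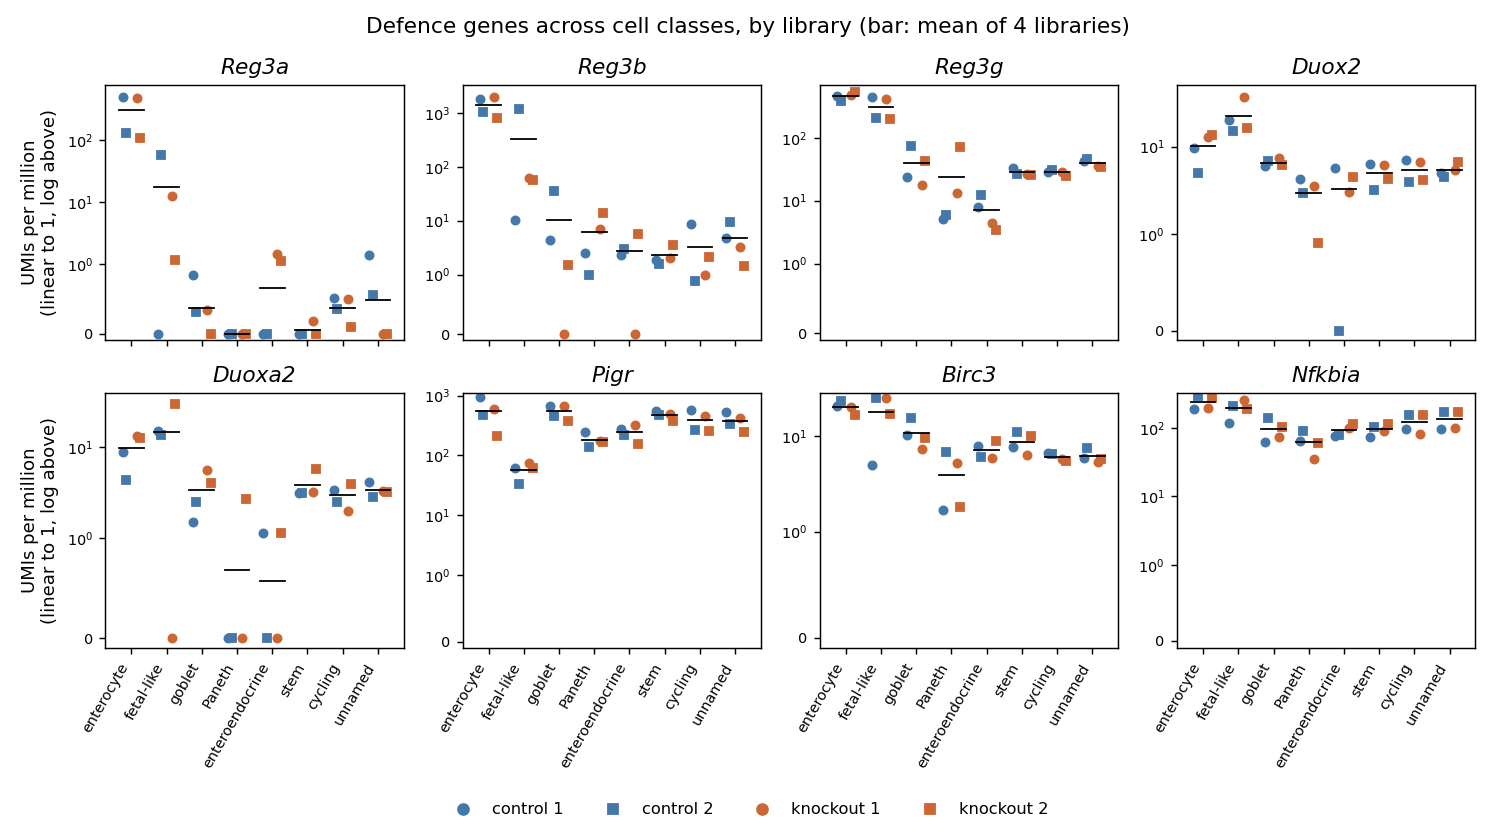
CPM of 8 defence genes by cell class and library (linear up to 1, log scale above), with a bar at the mean of the 4 libraries; tuft-like cells, 28 in all, are not drawn. Reg3a and Reg3b are concentrated in enterocyte-like cells, Reg3g has UMIs in every class drawn, and Pigr is lowest in fetal-like cells.

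The fall of the lectins in the sum was then set against the shares of the classes. For each mouse, the knockout level of each class was weighted by the share of UMIs that the class had in the control of that mouse. Enterocyte-like cells had 13.9% and 24.0% of all UMIs in controls, against 6.16% and 10.1% in the knockouts. With the control shares held, Reg3g in the knockout was 101% and 121% of control for mice 1 and 2, against 61.7% and 65.9% as measured. Reg3a was 95.1% and 70.7%, against 42.5% and 30.02%. For Reg3b the mice differed, at 107% and 54.8%, against 47.8% and 23.7%. The part of the Reg3b difference of mouse 2 that lay in levels rather than shares was -167 CPM, of which the fetal-like class gave -109. In control 2, 1 fetal-like cell held 1778 of the 2509 Reg3b UMIs of that class.

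Pigr behaved otherwise: with the control shares held it was 81.8% and 72.0% of control, against 78.3% and 77.2% as measured, so the shares made little difference to it. Birc3 was 91.2% and 70.7%, against 76.7% and 56.8%. Nfkbia was 102% and 93.2%, against 93.7% and 81.8%. Duox2 was 109% and 145%, and Duoxa2 117% and 214%, both higher than as measured (99.3% and 113%, and 90.6% and 149%). The part of the Duoxa2 difference of mouse 2 that lay in levels was 4.52 CPM. Enterocyte-like cells gave 2.03 CPM of that part and fetal-like cells 1.59. This arithmetic has 2 mice and no test, and assumes that a class has the same makeup in both groups. In mouse 1 that did not hold for enterocyte-like cells. Cluster 15, where Reg3a was at 1036 CPM in control 1, gave way to cluster 5, where it was at 39.98 CPM. In mouse 2 it did not hold for goblet-like and cycling-like cells. Cluster 11 held 12.6% of the goblet-like cells of control 2 and 34.2% of those of knockout 2. Cluster 8 held 48.1% of the cycling-like cells of control 2 and 65.1% of those of knockout 2. The part of these shifts in the values with shares held was not tested.

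**Figure D5:**
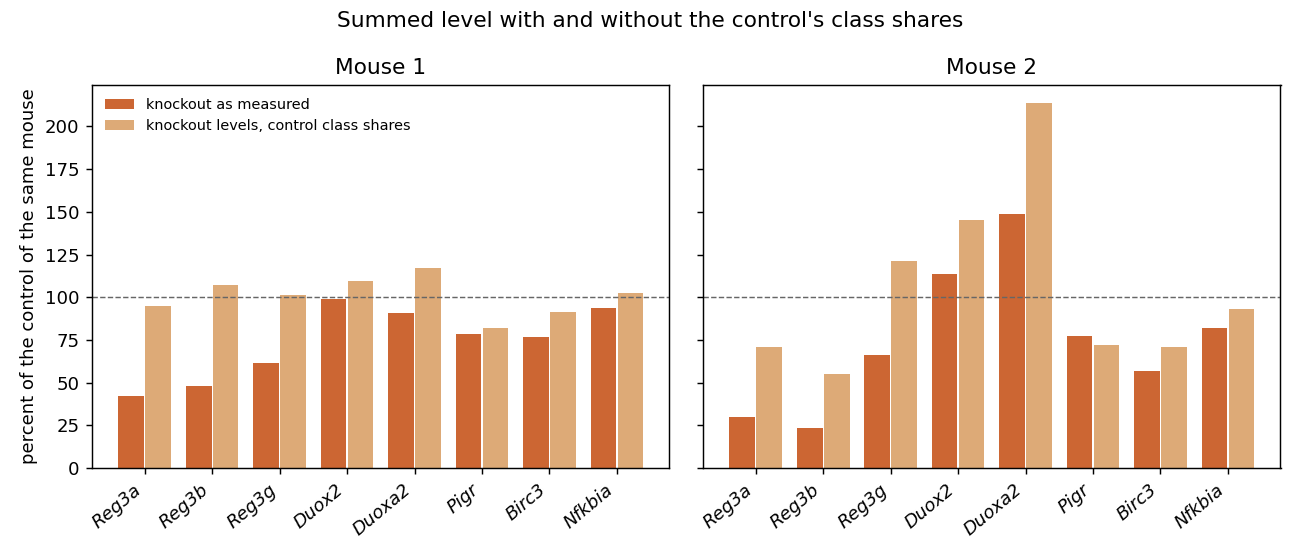
Knockout level of 8 defence genes as a percent of the control of the same mouse, summed over all cells as measured (darker bars) and with each class weighted by its share of UMIs in the control (lighter bars). The dashed line is the control level of 100. The lighter bars of Reg3a, Reg3b and Reg3g are taller than the darker ones in both mice, and for Pigr they stand at 81.8 and 72.0 against 78.3 and 77.2.

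Markers of other cell types also differed among the enterocyte-like cells of the libraries. The 8 fetal-like markers summed to 133 and 514 CPM in controls, against 71.2 and 502 in knockouts, the 10 Paneth markers to 428 and 310 against 464 and 494, and the 10 goblet markers to 152 and 137 against 156 and 221. In all cells, the 15 enterocyte markers summed to 5631 and 13723 in controls, against 2686 and 5528 in knockouts. Of the 8 mesenchymal markers, all but Vim had 0 to 6 UMIs in a library. The part of these markers in the results was not tested.

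The other genes of the defence pathways were taken from 8 lists, and calls in this and the next paragraphs are from the paired fit. The lists were chosen with earlier results of these data known. Their counts beside the share of all genes are therefore a description and no independent test. The median log2 fold change of a list in all cells ran from -1.38 (Reg family) to 0.16 (NADPH oxidases), against -0.01 over all genes tested. Of the 6 epithelial NADPH oxidase genes tested, 2 rose, where 4.43% of all genes did, and both belong to the colon-type oxidase rather than to Duox2. Nox1, its catalytic subunit, was at 19.0 and 14.9 CPM in controls, against 24.7 and 23.1 in knockouts (log2 fold change 0.47, edgeR adjusted p = 0.0458), and Noxa1, its activator, at 27.2 and 21.4 against 37.7 and 32.0 (0.48, adjusted p = 0.0242). Both were sparse in enterocyte-like cells, where Nox1 had 1 to 10 UMIs. Of the 12 secreted and surface defence genes tested, Wfdc2 rose and 5 fell, Pigr, Lypd8, Sprr2a1, Sprr2a3 and Muc13, where 8.29% of all genes fell.

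Of 5 tested genes for defence proteins made with the lectins at the villus bottom, 4 fell in all cells, where 8.29% of genes did, and 0 in enterocyte-like cells, where 1.09% did. Enterocyte-like cells held a smaller share of all UMIs in the knockouts, and the part of that share in the falls was not tested. In secretory cells 3 of 5 fell (Nlrp6, Ccl25 and Lypd8), where 2.52% of genes did, and in goblet-like cells 4 of 5 (the same genes and Il18), where 6.80% did. The goblet-like class, which is part of the secretory one, sat in different clusters in the groups. Cluster 11 held 29.3% and 12.6% of its control cells and 43.8% and 34.2% of its knockout cells. The part of this shift in these falls was not tested. The cytokine gene Il18 was at 25.5 and 57.7 CPM in controls, against 13.4 and 34.5 in knockouts (log2 fold change -0.87, edgeR adjusted p = 0.00444). Within enterocyte-like cells it was at 130 and 104 against 120 and 208 (0.50, adjusted p = 0.0749). Lypd8, which keeps flagellated bacteria off the epithelium, was at 758 and 1361 against 521 and 731 in all cells (-0.76, adjusted p = 0.0115), and at 1778 and 1623 against 1434 and 1791 in enterocyte-like cells (-0.06, adjusted p = 0.974). The chemokine gene Ccl25 and the pore former gene Gsdmd fell in all cells as well, by 0.77 and 0.80 on the log2 scale.

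Of 18 genes for NF-kB subunits and inhibitors, 2 fell in all cells and 0 rose, near the share of all genes that fell (8.29%). Relb, a subunit of the noncanonical pathway, was at 35.9 and 50.1 CPM in controls, against 29.0 and 29.2 in knockouts (log2 fold change -0.59, edgeR adjusted p = 0.0312). Nfkbiz, an atypical inhibitor protein, was at 19.5 and 23.0 against 12.8 and 15.7 (-0.62, adjusted p = 0.0179). Of 17 NF-kB induced genes, Birc3 and the chemokine gene Cxcl16 fell, also near that share. In secretory cells, where 2.52% of genes fell, Relb was the 1 of 17 subunit and inhibitor genes that fell, and Cxcl16 and Tgm2 fell among 12 induced genes. The part of the shift between goblet-like clusters in these secretory falls was not tested. In enterocyte-like cells, where 2.48% of genes were called and 1.09% fell, 0 of 17 subunit and inhibitor genes were called. Of 11 induced genes the chemokine gene Ccl20 fell there (log2 fold change -0.69, edgeR adjusted p = 0.0467).

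Of 17 genes for the receptors of interleukins 22 and 17 and of tumour necrosis factor, and for STAT3 signalling, 3 fell in all cells, where 8.29% of genes did: Il17rc (log2 fold change -0.96, edgeR adjusted p = 0.00381), Il17ra (-0.66, adjusted p = 0.0382) and Il10rb (-0.43, adjusted p = 0.0431). None of 13 tested was called within enterocyte-like cells, where 2.48% of genes were, and none of 15 in secretory cells, where 5.27% were. At these shares a count of 0 in so short a list does not show a lack of change. Il22ra1 and Stat3 are named outside the rule for named genes, after their values were seen. Il22ra1, the chain that gives the interleukin 22 receptor its specificity, had 15 to 46 UMIs in a library. Stat3 was at 20.4 and 27.6 CPM in controls, against 19.4 and 24.0 in knockouts (-0.18, adjusted p = 0.282). Of 20 microbe sensing genes 5 fell in all cells, Ticam1 and 4 Naip genes, the latter being near-copies whose counts are uncertain. In secretory cells 5 of 18 fell, the inflammasome genes Nlrp6 (log2 fold change -0.75, edgeR adjusted p = 0.0150), Pycard (-0.38, adjusted p = 0.0224) and Nlrc4 (-0.51, adjusted p = 0.0134) and the copies Naip5 and Naip6, where 2.52% of genes fell. In goblet-like cells 7 of 17 fell, where 6.80% of genes did. In enterocyte-like cells 0 of 15 were called, where 2.48% of genes were. The same shift between goblet-like clusters applies to these goblet-like and secretory falls, and its part was not tested.

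Within enterocyte-like cells, 2 of the 9 secreted and surface defence genes tested rose, where 1.39% of 9885 genes did. Dmbt1, a secreted scavenger protein that binds bacteria, was at 54.2 and 10.3 CPM in controls, against 60.7 and 37.7 in knockouts (log2 fold change 0.92, edgeR adjusted p = 1.83e-04). It is a leading gene of cluster 5, which held 29.3% and 12.5% of the class in controls, against 47.8% and 17.6% in knockouts. The part of that shift in the rise was not tested. Sprr2a3, one of several near-identical Sprr2a genes whose counts are uncertain, was at 149 and 207 against 334 and 700 (1.496, adjusted p = 3.86e-16), while in all cells and in secretory cells it fell, by 0.32 and 0.64 on the log2 scale.

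The genes whose levels were most like those of the defence genes were ranked by Pearson's r of log2(CPM + 1) over 16 points, the 4 libraries in 4 classes with at least 20 cells each, among 7720 genes. Points of one library share its depth and mouse, so r is a description. Closest to Reg3a were Ugt2b5, Nat8f5 and Nr1i3 (r = 0.99 each), to Reg3b Exoc3l4, Aldh3a2 and Slc5a4b (r = 0.96), and to Reg3g Gchfr, Elovl1 and Mef2d (r = 0.96). Closest to Duox2 was Onecut2 (r = 0.91), then Bnip3l and Pcgf3 (0.90 each). Closest to Duoxa2 were Higd1a (r = 0.95), Gapdh (0.95) and Pkm (0.94), and to Pigr Usp33 (0.93), Ube2r2 (0.90) and Zcchc7 (0.89). Closest to Birc3 were Dsc2 (r = 0.95), Specc1 and Fbxo8 (0.94 each), and to Nfkbia Emp1 (0.97), Sfn (0.96) and Sqor (0.95). No gene was ranked for Lcn2.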

How the data were processed

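RNA was measured by droplet single-cell sequencing in 4 organoid libraries. The authors deposited counts of unique molecular identifiers (UMIs) per gene and barcode, made with Cell Ranger 3.0.1 on mm10 per the submitters' processing notes, while the file headers give software version 3.0.0. The annotation release and strand setting are not given in the sources used here. The libraries held 22139560 to 35592468 UMIs, and intervals cover counting error only.

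Barcodes with under 500 genes and the highest-scoring likely doublets (67 in all) were removed, and cells were clustered (scanpy 1.11.5, 2000 variable genes, 30 principal components, Leiden resolution 1) with 126 defence genes left out. The limits for naming clusters, and the joining of the 2 enterocyte marker lists, were set after the data were seen. The members and lists were chosen with earlier results of these data known. Counts were summed per library and class and tested with edgeR 4.0.16 (quasi-likelihood, TMM, filter on low counts, Benjamini-Hochberg adjustment over all genes tested), with the group as the only term. DESeq2 1.42.0 and a term for the mouse were alternatives. CPM values were scaled to the sum of the class. The labels give 2 mice, and same-numbered control and knockout libraries share a tag in the names of their deposited files, so the numbers pair them. Deviations from the group means correlated at 0.660 in all cells and 0.557 in enterocyte-like cells. On simulated data for all cells, with 200 of 13246 genes changed by a fold of 2, the paired fit recovered 195 and the fit without pairing 0. False calls are not given, so this does not show how many of the paired calls are true. Named genes were the 9 members, list genes past the threshold, and for each member the 3 genes most like it.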

Additional observations from a re-analysis of the deposited data

Results flagged for a closer look

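Reg3g was higher in the knockout than in the control in enterocyte-like cells of both mice and lower in goblet-like and cycling-like cells. The difference did not pass the test in enterocyte-like cells (edgeR adjusted p = 0.565, paired) or in cycling-like cells. The log2 ratio of knockout to control in enterocyte-like cells was 0.09 in mouse 1 and 0.47 in mouse 2, and in goblet-like cells it was -0.41 and -0.79, so the classes differed by 0.50 and 1.26. In cycling-like cells the ratios were -0.02 and -0.30, which differed from enterocyte-like cells by 0.11 and 0.77. These differences between classes were not tested. In goblet-like cells of control 2, 116 of 243 Reg3g UMIs were in 1 cell, and in those of knockout 2, 91 of 259. Within the enterocyte-like class, Reg3g was lower in the knockout of both mice in cluster 5 (437 and 512 against 314 and 486 CPM) and in cluster 15 (347 and 1258 against 327 and 45.6 CPM), and higher in cluster 0. With 2 libraries a group, no library could be checked against others of its group.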

How the results depend on the processing

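Without pairing, edgeR called 0 genes, except 1 in Paneth-like cells. With the replicate block it called 1685 in all cells, 245 in enterocyte-like, 593 in secretory, 1543 in goblet-like, 34 in Paneth-like and 361 in cycling-like cells. DESeq2 called 131, 7, 10, 24, 1 and 32 without the block, and 867, 21, 85, 151, 3 and 56 with it. Without the filter on low counts and without the block, 45, 222, 350, 28 and 137 genes were called in the 5 classes, and without TMM 3 in Paneth-like cells. With defence genes kept in the clustering 11 were called in goblet-like cells, at Leiden resolution 0.5 39 in cycling-like cells, and in the largest enterocyte-like cluster alone 1. Leaving out 1 library called 0 to 22 genes in enterocyte-like, 0 to 41 in secretory, 0 to 349 in goblet-like, 12 to 126 in Paneth-like and 0 to 42 in cycling-like cells, and 0 to 60 in the comparison of enterocyte-like with secretory cells; in all cells it called 0. Leaving out a library with the block leaves no residual degrees of freedom and was not run. With the block, no TMM gave 2557 in all cells and 62 in Paneth-like cells. The largest enterocyte-like cluster gave 100. No doublet removal, which also left a goblet-like cluster unnamed, gave 14 in secretory and 298 in goblet-like cells. Leiden resolution 0.5 gave 376 in secretory, 70 in Paneth-like and 551 in cycling-like cells, and resolution 2 gave 376, 16 and 864, and 1022 in goblet-like cells. Defence genes kept gave 101 in secretory and 18 in Paneth-like cells, and cells with at least 5000 UMIs gave 127 in Paneth-like and 778 in cycling-like cells. The cause was not tested.

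Single genes changed sign as follows, on the log2 scale. Without pairing, Nfkbia in enterocyte-like cells was -0.027 without TMM, -0.0095 without the filter and -0.038 in cells with at least 5000 UMIs. Reg3b there was 0.059 at Leiden resolution 2, 0.092 in cells with at least 5000 UMIs and 0.75 in the largest cluster, where Reg3a was 0.26. In secretory cells Reg3b was 0.63 and Reg3g 0.10 with defence genes kept, and 0.036 and 0.12 without the richest cells. The enterocyte-like minus secretory difference of Duoxa2 was 0.069 at resolution 2 and 0.31 with defence genes kept, and that of Reg3b -0.96 with them kept. With the block, Reg3a was 0.22 and Reg3b 0.57 in the largest cluster, Nfkbia -0.018 without TMM and -0.046 in cells with at least 5000 UMIs, and in secretory cells Reg3b was 0.52 with defence genes kept and Reg3g 0.014 without the richest cells.

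Leaving out 1 library without the block gave, in all cells, -0.027 to 0.13 for Duox2, -0.26 to 0.61 for Duoxa2, -0.84 to 0.049 for Pigr and -0.74 to 0.34 for Nfkbia. In enterocyte-like cells it gave -1.38 to 1.07 for Reg3a, -0.69 to 0.40 for Reg3b and -0.38 to 0.41 for Nfkbia. In secretory cells it gave -1.43 to 0.81 for Reg3g, -0.57 to 0.038 for Pigr and -0.71 to 0.36 for Nfkbia, and in goblet-like cells -1.59 to 0.40 for Reg3g. For the difference between enterocyte-like and secretory cells it gave -1.64 to 0.22 for Reg3a, -0.47 to 3.26 for Reg3b, -0.39 to 1.44 for Reg3g and -0.95 to 0.64 for Duoxa2. Called values also moved without changing sign. In all cells Reg3a went from -1.44 to -2.23 without knockout 1, -0.96 without control 1 and -0.93 without knockout 2. Reg3g went from -0.67 to -0.28 without control 2, -0.33 without knockout 1 and -1.14 without knockout 2, and Birc3 from -0.67 to -0.27 without control 2. In enterocyte-like cells Pigr went from -0.82 to -0.29 without control 1, -0.30 without knockout 2 and -1.65 without knockout 1. Duox2 went from 0.92 to 0.53 without control 2 and 1.42 without control 1, and Duoxa2 from 1.04 to 0.62 and 1.57. Reg3b in secretory cells went from -2.06 to -0.09 without control 2, and Reg3g in Paneth-like cells from 2.90 to 1.29 without knockout 2. The levels with class shares held, as means of 2 mice, moved by less than 1 SD in all 24 settings tried. That SD is the one between the 2 mice, and was wide, at 36.9 percentage points for Reg3b and 68.4 for Duoxa2. The limit was thus easily met. In mouse 1, Reg3g went from 101% of control to 93.6% at Leiden resolution 2. Lcn2, and Duox2 and Duoxa2 within enterocyte-like cells, were limited by few UMIs.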
